A study of Mus musculus with 6 samples.

Results

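Laminin chain genes were followed in endothelial cells from mouse lung, which form the inner lining of vessels, with and without HIF-2α, the product of Epas1 and a transcription factor that accumulates at low oxygen. The set held 9 genes: the alpha chains Lama1 to Lama5, the beta chains Lamb1, Lamb2 and Lamb3, and the gamma chain Lamc1. They were chosen from a list of names, with earlier results of these data known. Each has at least 1 probe set (a group of array probes read out as 1 value) that the platform annotation gives to it alone. Lamc3, another gamma chain with such probe sets, was not on that list and is given beside the 9. They accounted for 17 of 34958 probe sets that name a single gene, and for 9 of 18194 genes. Each gene was represented by its probe set with the highest mean over the 6 arrays, and its other probe sets served as a check.

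Laminins are large secreted proteins of the basement membrane, the sheet of matrix under endothelium and epithelium. Each molecule is a trimer of an alpha, a beta and a gamma chain, and the alpha chain carries the domains that bind cell receptors. Vessel basement membranes are known for the alpha 4 and alpha 5 chains, encoded by Lama4 and Lama5, joined mostly to the beta 1 and gamma 1 chains of Lamb1 and Lamc1 and in part to the beta 2 chain of Lamb2. Lama1 and Lama2 are known mainly from epithelium, nerve and muscle, and Lama3 and Lamb3 from epithelium.

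All 6 arrays came from cells kept for 16 h at 0.5% oxygen, 3 from control cells and 3 from cells labelled as a Hif-2a knockout. The knockout cells came from lungs of mice with a VE-Cadherin-Cre transgene, which is active in endothelium, and HIF-2a alleles floxed/floxed, that is, with sites for Cre on both copies. The controls are described in different ways, as HIF-2a floxed/WT animals that also carried VE-Cadherin-Cre, as Hif-2a floxed/floxed cells and as wild type. No array was at normal oxygen, so a response to low oxygen cannot be read from these data. Cells were selected with endothelial markers, per the labels. Whether arrays of the same group stand for separate animals or cultures is not given there, so the spread behind each p-value is that between these 6 arrays and may be technical. The brightest Epas1 probe set read 9549 ± 90.9 intensity units in controls and 9392 ± 469 in knockouts (SD, n = 3 each; limma adjusted p = 0.753). The deleted exons are not named in the labels, so this signal does not check the genotype.

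Of the 9 chains, 5 had clear signal and 4 were at the floor of the arrays. In the knockout arrays Lama4 rose 14.1-fold, Lama5 fell to a level 1.96-fold below the controls, and Lamb2 rose 1.82-fold, as ratios of mean intensity. Lamb1 and Lamc1, the partner chains of both alpha chains, did not pass the test. Lama4 passed under every alternative way of processing that was run. Lama5 and Lamb2 kept their sign but lost the call in 7 and 8 of the 20 alternatives. Of 12279 genes tested, 13.7% passed an adjusted p of 0.05 in this comparison (8.64% higher and 5.07% lower), against 3 of the 5 chains tested (2 higher, 1 lower). The median log2 difference, knockout minus control, was 0.09 over these 5 chains and 0.0071 over all genes. Arrays of the groups did not overlap in 3 of the 5 chains, against 36.2% of all genes tested.

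**Figure D1:**
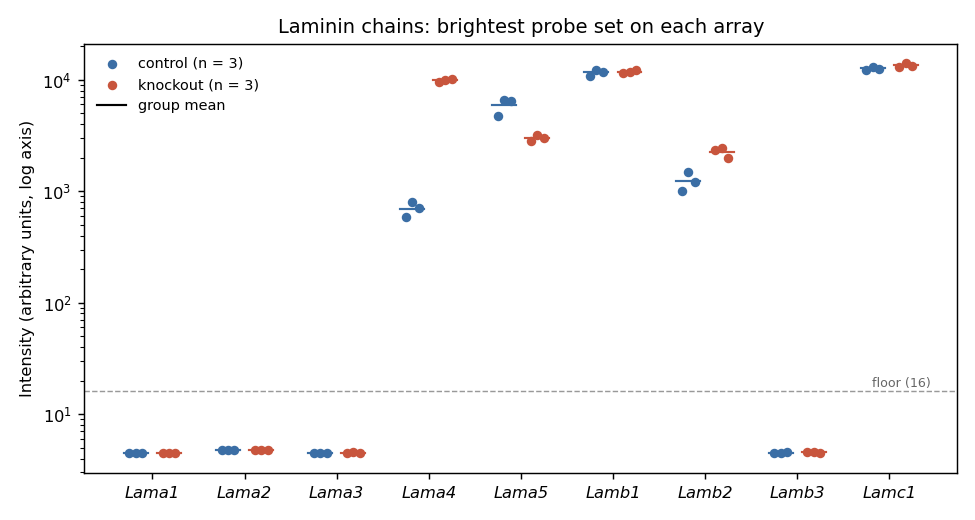
Intensity of the brightest probe set of each laminin chain on every array, in arbitrary units on a log axis; points are arrays (3 control, 3 knockout), bars are group means and the dashed line is the floor signal of 16. Lama4 and Lamb2 are higher and Lama5 is lower in all 3 knockout arrays, Lamb1 and Lamc1 overlap, and Lama1, Lama2, Lama3 and Lamb3 lie between 4.44 and 4.81 in every array; heights of different chains cannot be compared, since probe sets differ in brightness.

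Promoter sequence is shown because the comparison concerns loss of a factor that binds DNA. It is given for the chains that differed and have an entry in the sequence table, with Lamb1 as a chain that did not pass. Lama4 and Lamc1 have no entry there, and the windows of the floor-level chains Lama2 and Lamb3 are not printed. HIF complexes are known to bind a short core motif, and both of its forms, ACGTG and GCGTG, were looked for on both strands in RefSeq windows of assembly GRCm38.p6 from 250 bases before to 50 bases after a gene's start. Capitals mark matches, and all letters are given 5′ to 3′ on the strand of the gene.
Lama5, chr2:180225810-180226109, minus strand, lower in the knockout arrays: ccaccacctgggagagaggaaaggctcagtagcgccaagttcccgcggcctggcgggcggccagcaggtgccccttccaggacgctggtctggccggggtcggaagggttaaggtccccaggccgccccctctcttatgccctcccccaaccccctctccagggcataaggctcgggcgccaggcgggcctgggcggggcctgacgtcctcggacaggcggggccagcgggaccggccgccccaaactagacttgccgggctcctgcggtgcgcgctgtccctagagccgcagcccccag
Lamb2, chr9:108479612-108479911, plus strand, higher in the knockout arrays: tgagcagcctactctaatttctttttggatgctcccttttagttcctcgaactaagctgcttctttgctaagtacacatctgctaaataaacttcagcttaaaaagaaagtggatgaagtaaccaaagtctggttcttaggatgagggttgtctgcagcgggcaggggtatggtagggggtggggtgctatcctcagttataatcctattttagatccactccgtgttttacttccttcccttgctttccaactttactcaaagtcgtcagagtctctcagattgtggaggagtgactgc
Lamb1, chr12:31265043-31265342, plus strand, not past the threshold: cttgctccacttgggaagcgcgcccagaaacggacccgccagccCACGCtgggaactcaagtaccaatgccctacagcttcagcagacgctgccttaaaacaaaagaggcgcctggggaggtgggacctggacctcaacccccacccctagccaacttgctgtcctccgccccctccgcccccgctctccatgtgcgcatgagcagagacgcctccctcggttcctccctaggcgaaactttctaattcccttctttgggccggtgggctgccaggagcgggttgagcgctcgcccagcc
The windows of Lama5 and Lamb2 held 0 matches and that of Lamb1 held 1, read as CACGC, the reverse complement of GCGTG. Of the windows not printed, that of Lama2 held 0 and those of Lamb3 held 1 and 0. Of the 32851 windows in the table, 43.8% held at least 1 match to either form, so a match is common. The windows differed in base composition, with 72.7% G or C for Lama5, 63.7% for Lamb1 and 44.0% for Lamb2. A match is a description of these letters and was not tested as a binding site.

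Lama4, the alpha chain made by endothelial and smooth muscle cells, had the largest difference of the set. Its brightest probe set read 592, 796 and 708 intensity units in controls 1 to 3, and 9538, 9888 and 10155 in knockouts 1 to 3. Every knockout array was above every control array, and the gap between the groups was many times the spread within either. The mean rose from 699 ± 102 to 9860 ± 309.8 (SD, n = 3 each), which is 3.80 ± 0.12 on the log2 scale (difference ± SE; adjusted p = 0.000934 with limma). Among the 12279 genes this was the difference in place 11 from the highest. The second Lama4 probe set gave the same direction from a much lower signal, with 9.47, 25.5 and 13.6 in controls and 1790, 1063 and 813 in knockouts. Control 2 was the one control array above the floor signal of 16 in that probe set, so its log2 difference of 5.22 ± 0.36 (adjusted p = 0.00829 over probe sets) rests on the constant of 16 added before taking logs.

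Lama5, the other alpha chain of vessels, went the opposite way. Its brightest probe set read 4754, 6548 and 6401 in controls 1 to 3 and 2815, 3192 and 3027 in knockouts 1 to 3. The groups did not overlap, and control 1 was the lowest of the controls. The mean fell from 5901 ± 996 to 3011 ± 189 (SD, n = 3 each), which is -0.95 ± 0.15 on the log2 scale (difference ± SE; adjusted p = 0.0244 with limma). That probe set is of a type whose probes can match more than 1 transcript, as are the brightest of Lamb1, Itga9 and Hspg2. A second Lama5 probe set without that property gave 3922 ± 536 and 1923 ± 145, a log2 difference of -1.02 ± 0.13 (limma adjusted p = 0.0225 over probe sets). The remaining Lama5 probe set stayed at the floor in all 6 arrays, at 4.44 to 4.48.

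Within the arrays, the 2 alpha chains were set against each other. The log2 value of Lama4 minus that of Lama5 was -2.97, -3.02 and -3.15 in controls 1 to 3 and 1.75, 1.63 and 1.74 in knockouts 1 to 3. This within-array difference was higher by 4.75 in the knockouts, with an exact two-sided permutation p of 0.1, the smallest that 3 arrays against 3 can give, and 0.1 after adjustment over 4 pairs of chains. Its size in a single array carries the brightness of both probe sets and does not give the ratio of the 2 transcripts. Its change between groups also depended on the probe sets and on the constant added before taking logs. It was 5.49 with the mean of probe sets and 4.65 with a constant of 64. The groups of each chain did not overlap and moved in opposite directions, so the permutation p restates the values of the single chains.

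Of the beta chains, 1 passed the test. Lamb2, the beta chain known from vessel walls, kidney filter and synapses, read 1014, 1486 and 1218 in controls 1 to 3 and 2323, 2465 and 1967 in knockouts 1 to 3. All knockout arrays lay above all control arrays, with control 2 and knockout 3 the closest. The mean rose from 1240 ± 237 to 2252 ± 256 (SD, n = 3 each), which is 0.86 ± 0.17 on the log2 scale (difference ± SE; adjusted p = 0.0412 with limma). Lamb2 had 1 probe set, so no second reading of it exists on these arrays, and with p-values adjusted over probe sets instead of genes it did not pass (adjusted p = 0.0566).

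Lamb1, the common beta chain, overlapped between the groups in each of its 3 bright probe sets. The brightest read 10775, 12269 and 11832 in controls 1 to 3 and 11453, 11724 and 12347 in knockouts 1 to 3. Its log2 difference was 0.03 ± 0.06 (limma adjusted p = 0.833), and those of the others were 0.08 ± 0.08 and 0.14 ± 0.16. The remaining Lamb1 probe set was at the floor, at 4.50 to 4.57. The log2 value of Lamb1 minus that of Lamb2 was lower in all knockouts, by a mean of -0.84 (exact permutation p = 0.1, adjusted p = 0.1 over the 4 pairs). This restates the rise of Lamb2 beside a Lamb1 that did not pass and is no separate support.

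Lamc1, the gamma chain shared by most laminins, read 12233, 13128 and 12572 in controls 1 to 3 and 13124, 14001 and 13380 in knockouts 1 to 3. Knockout 1 fell just below control 2, so the groups overlapped. The log2 difference was 0.09 ± 0.04 (limma adjusted p = 0.185), and a second probe set gave 0.0007 ± 0.14. Set against its partner chains, Lama4 was higher in every knockout array than in any control: the within-array difference between Lama4 and Lamb1 was higher by 3.77 in the knockouts and that between Lama4 and Lamc1 by 3.70. Both pairs gave an exact permutation p of 0.1 and an adjusted p of 0.1 over the 4 pairs, with no overlap between the groups. Both restate the rise of Lama4 against partner chains that did not pass and are no separate support.

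**Figure D2:**
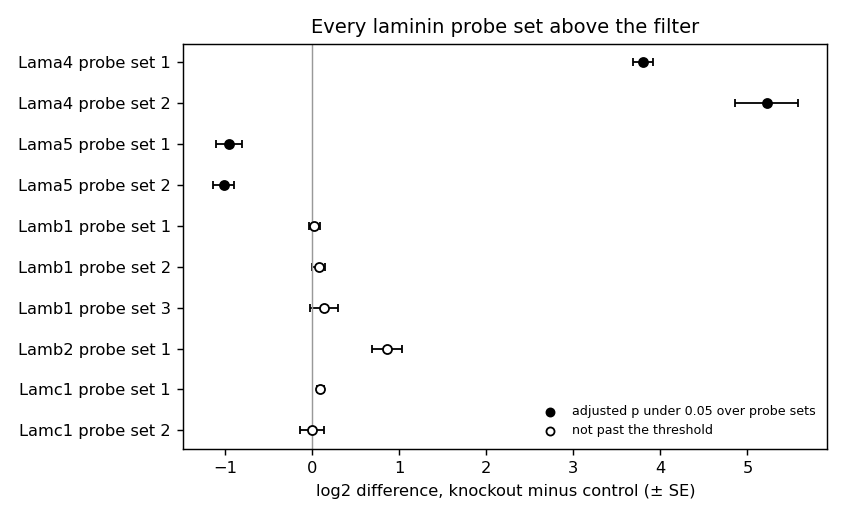
Log2 difference in intensity, knockout minus control, with its SE for each of the 10 laminin probe sets above the filter on low values; filled points passed an adjusted p of 0.05 over all probe sets. Both Lama4 probe sets lie to the right and both Lama5 probe sets to the left of 0, while the 3 of Lamb1 and the 2 of Lamc1 lie close to it.

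Over these 10 probe sets 4 passed, the 2 of Lama4 and the 2 of Lama5, against 7.65% of 27022 probe sets, and no chain had bright probe sets that passed in opposite directions. In the brightest probe sets, the spread between arrays also differed among the chains. In controls the SD was 14.6% of the mean for Lama4, 16.9% for Lama5 and 19.1% for Lamb2, and 6.61% and 3.57% for Lamb1 and Lamc1. In knockouts it was 3.14% for Lama4, 6.27% for Lama5, 11.4% for Lamb2, 3.87% for Lamb1 and 3.34% for Lamc1. Lama4 had the smallest of these, but its second probe set had 41.5% in knockouts and the second of Lamb1 had 1.49%. With 3 arrays a group, these spreads are themselves imprecise.

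The remaining 4 chains were left out of the test by the filter on low values. Lama1, the alpha chain of early embryonic and kidney basement membranes, read 4.44 to 4.51 over the 6 arrays. Lama2, the chain of muscle and peripheral nerve, read 4.74 to 4.81. Lama3 and Lamb3, which belong to the laminin that anchors epithelium, gave 4.49 to 4.54 and 4.51 to 4.56 in their brightest probe sets, and a second Lama3 probe set gave 4.23 to 4.26. None of the 7 floor-level laminin probe sets, which include the dim ones of Lama5 and Lamb1, exceeded 4.81 on any array. At this signal a level or a difference cannot be read from the arrays. Lamc3 was also at the floor, with 4.01 to 4.25 over its 2 probe sets.

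Markers of the cells put these values in context. Of 14 endothelial markers, 0 were at the floor on all 6 arrays, although the claudin Cldn5, at 25.5 ± 11.3 in knockouts (SD, n = 3), read 15.2 on its lowest array. By contrast, 8 of 8 fibroblast markers, 10 of 10 epithelial markers and 4 of 4 mesothelial markers were at the floor on all 6 arrays. Of 9 mural cell markers, 8 were at the floor, among them Acta2, Myh11, Pdgfrb, Cspg4 and Rgs5. The other, the actin-binding protein Tagln, read 50.3 ± 22.1 in controls and 148 ± 70.5 in knockouts (SD, n = 3 each; limma adjusted p = 0.144). The summed signal of the mural list was 70.9 to 113 in controls and 109 to 246 in knockouts and overlapped between the groups. Among the knockouts it was lowest in knockout 3. That array had the highest knockout value of the brightest Lama4 probe set (10155) and the lowest of the second (813). Of 8 leukocyte markers, 7 were at the floor, with Ptprc among them, and the exception, the lysosomal protein Cd68, fell by 2.01 on the log2 scale (limma adjusted p = 0.00769). The summed leukocyte signal, nearly all of it Cd68, was 3719 to 4284 in controls and 787 to 1157 in knockouts. Of the 14 endothelial markers, 5 passed as lower (Pecam1, Tek, Tie1, Flt1 and Erg), against 5.07% of all genes, and 0 as higher, against 8.64%. The rest did not pass, with log2 differences from -0.80 (Cldn5) to -0.02 (Esam). The endothelial list summed to 171337 to 184375 in controls and 142117 to 155770 in knockouts. The part of these shifts in the laminin values was not tested, and fewer cells of a type cannot be told apart from less RNA per cell.

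Of 15 genes for laminin receptors, 14 were tested, of which 0 rose, 2 fell and 12 did not pass, with a median log2 difference of -0.26. These 2 of 14 are near the 13.7% of all genes that passed. At an unadjusted p under 0.05, limma gave 3 higher and 3 lower. The share of all genes at that threshold was not counted, so such counts, here and for the lists below, are a description only. Itga9, an integrin alpha chain for several matrix ligands, read 554, 596 and 551 in controls 1 to 3 and 94.4, 194 and 95.0 in knockouts 1 to 3. It fell by 2.09 ± 0.29 on the log2 scale (limma adjusted p = 0.0194), with knockout 2 above the other knockouts. Itga6, an alpha chain of the main laminin-binding integrins, read 23880, 22237 and 23210 in controls and 19163, 18188 and 20437 in knockouts. It fell by 0.26 ± 0.05 (adjusted p = 0.0451), a small difference in which the groups did not overlap. The syndecan Sdc4, a membrane proteoglycan, and Rpsa, which encodes a ribosomal protein also described as a laminin receptor, had log2 differences of -0.39 ± 0.09 (adjusted p = 0.055) and 0.15 ± 0.04 (adjusted p = 0.0601). Without control 1, control 3 or knockout 1, 0 of the receptor genes passed, and without knockout 3, 5 did. The share of all genes that passed moved the same way, to 1.68%, 1.69% and 2.54% without the first 3 of these arrays and to 24.5% without knockout 3.

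Of 18 genes for basement membrane partners of laminin, 13 were tested, of which 0 rose, 2 fell and 11 did not pass, with a median log2 difference of -0.02, and 5 of the 13 were at the floor on all arrays. The 2 of 13 that passed are near the 13.7% over all genes. At an unadjusted p under 0.05, limma gave 0 higher and 2 lower. Nid2, a nidogen that links laminin to collagen IV, read 74.8, 78.5 and 54.6 in controls 1 to 3 and 3.73, 3.73 and 3.77 in knockouts 1 to 3. All knockouts were at the floor, and the log2 difference of -2.10 ± 0.12 (limma adjusted p = 0.0034) understates the change. Agrn, a proteoglycan that binds the laminin coiled coil, read 2901, 3352 and 2916 in controls and 1756, 2111 and 1669 in knockouts, a fall of 0.73 ± 0.11 (adjusted p = 0.0259). Agrn lost its call without control 1, control 2, control 3 or knockout 1, leaving Nid2 alone. Nid1, the other nidogen, and Hspg2, which encodes perlecan, had log2 differences of -0.09 ± 0.04 and -0.33 ± 0.16 and did not pass (adjusted p = 0.211 and adjusted p = 0.234). The collagen IV chains Col4a1 and Col4a2 were bright in both groups and differed by -0.02 ± 0.02 and -0.05 ± 0.04.

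Among 6 netrins, secreted or membrane-bound relatives of the laminin arms, 4 were tested and 0 passed with limma, also 0 at an unadjusted p under 0.05. Ntn1 had a log2 difference of -0.84 ± 0.37 (adjusted p = 0.202) and Ntn4, which can insert into laminin networks, 0.09 ± 0.08 (adjusted p = 0.507), while Ntn5 and Ntng1 were at the floor. Of 10 proteases that act on basement membrane, 6 were tested, of which 0 rose, 1 fell and 5 did not pass (0 higher and 2 lower at an unadjusted p under 0.05 with limma), so 1 of 6 passed against 13.7% of all genes. Mmp14, a membrane-bound metalloprotease, read 5259, 6488 and 5417 in controls 1 to 3 and 2577, 2970 and 2488 in knockouts 1 to 3, a fall of 1.09 ± 0.11 on the log2 scale (limma adjusted p = 0.012). Its groups did not overlap, but it lost its call without control 1, control 3 or knockout 1. The lysosomal protease Ctsb had a difference of -0.18 ± 0.04 (adjusted p = 0.0523), and Bmp1 and Mmp3 had differences of 0.21 ± 0.17 and 0.09 ± 0.09 (adjusted p = 0.454 and adjusted p = 0.548).

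**Figure D3:**
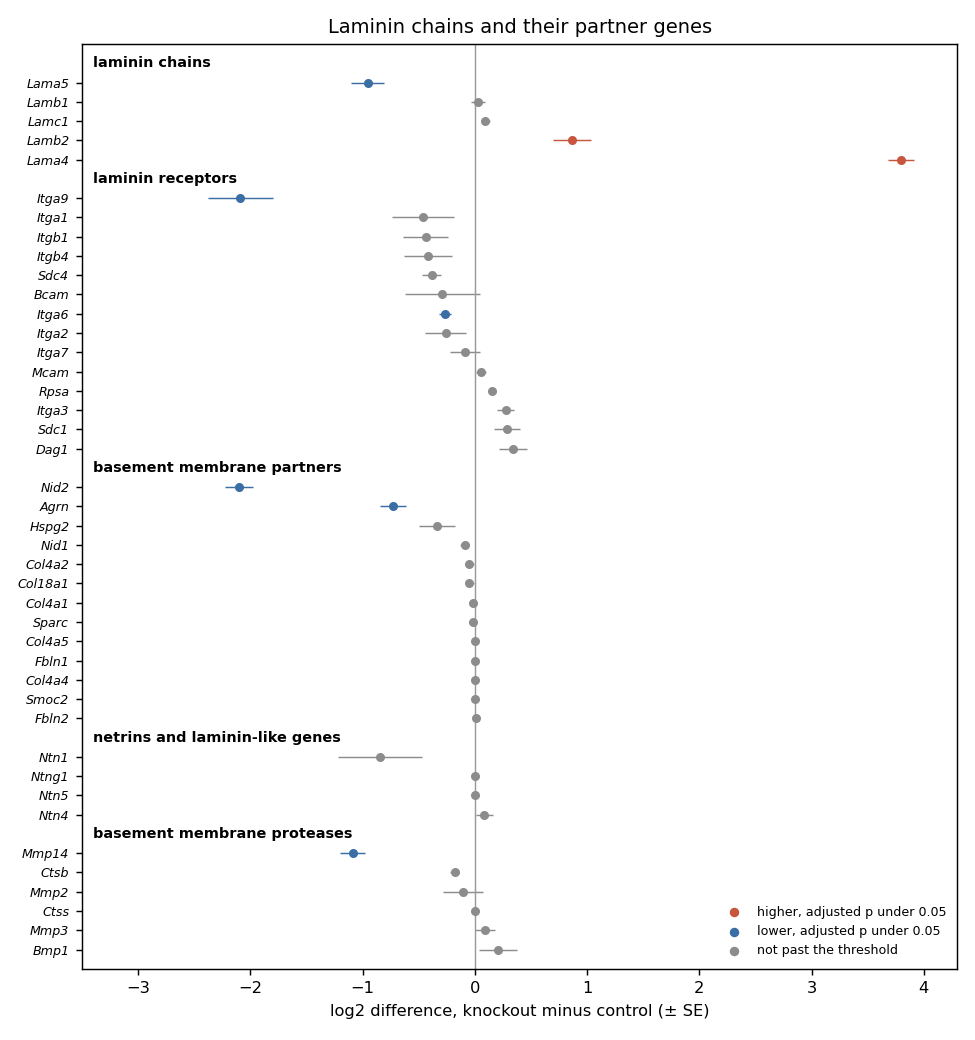
Log2 difference in intensity, knockout minus control, with its SE for the tested laminin chains and the tested genes of 4 related lists; red passed as higher, blue passed as lower and grey did not pass an adjusted p of 0.05. Lama4 and Lamb2 are the genes plotted that passed as higher, and the genes of the other lists that passed were lower.

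The genes whose pattern over the 6 arrays was most like that of a chain were ranked by the root mean square difference of their log2 values after each gene was centred on its own mean. For Lama4 they were Foxred2 (0.21), Myh10 (0.24) and Ces2g (0.28). For Lama5 they were Adgre5 (0.06), Gm5817 (0.10) and Fgfr1 (0.11), with Fgfr1, a fibroblast growth factor receptor, at 8135 ± 642 in controls and 4110 ± 376 in knockouts (SD, n = 3 each). For Lamb2 they were Keap1 (0.07), Adck5 (0.08) and Aatf (0.08), with Keap1, a sensor of oxidative stress, at 2193 ± 292 in controls and 3875 ± 483 in knockouts. With 6 arrays and 12279 genes, close matches of this kind are a description only.

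Several measures of the arrays moved with the groups. Lamb2 lies on chromosome 9, where the median log2 difference over 681 tested genes was 0.21 and 26.4% of genes passed, against 0.0071 and 13.7% over all genes. For chromosome 10, with Lama4, and chromosome 2, with Lama5, the medians were 0.0057 and 0.02. The signal of the spike-in controls bioB and bioC, labelled RNA added to each sample, had a mean log2 of 10.66 to 10.88 in controls and 10.86 to 11.08 in knockouts. With that level as a covariate, Lama4 kept a log2 difference of 3.63 (limma adjusted p = 0.0135), Lama5 had -1.18 (adjusted p = 0.0708) and Lamb2 0.45 (adjusted p = 0.073), so Lama4 alone of the chains passed. Over all genes 3.6% passed in that fit, against 13.7% without the covariate. The part of the spike-in level and of chromosome 9 in these values was not tested further.

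The weaker calls were lost as any of several arrays was left out, while the differences kept their sign. Lama5 passed without control 1 or knockout 3 but not without control 2 (adjusted p = 0.0627), control 3 (0.104), knockout 1 (0.0984) or knockout 2 (0.0622), with log2 differences from -1.10 to -0.87. Lamb2 passed without control 2 or knockout 3 but not without control 1 (adjusted p = 0.116), control 3 (0.148), knockout 1 (0.143) or knockout 2 (0.105), with differences from 0.73 to 1.001. Over all genes the share that passed ranged from 1.68% to 24.5% as each array was left out. Controls 1 and 3 were the most alike arrays of a group: over genes, their log2 difference had an SD of 0.14, against 0.31 to 0.68 for the remaining pairs. With these arrays averaged into 1 sample, Lama4 gave 3.75 (adjusted p = 0.00823), Lama5 -0.995 (adjusted p = 0.0525) and Lamb2 0.79 (adjusted p = 0.128), while 1.57% of all genes passed. Lama4 passed in each of these fits, with log2 differences from 3.69 to 3.90 and adjusted p from 0.00235 to 0.0156 as each array was left out in turn.

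**Figure D4:**
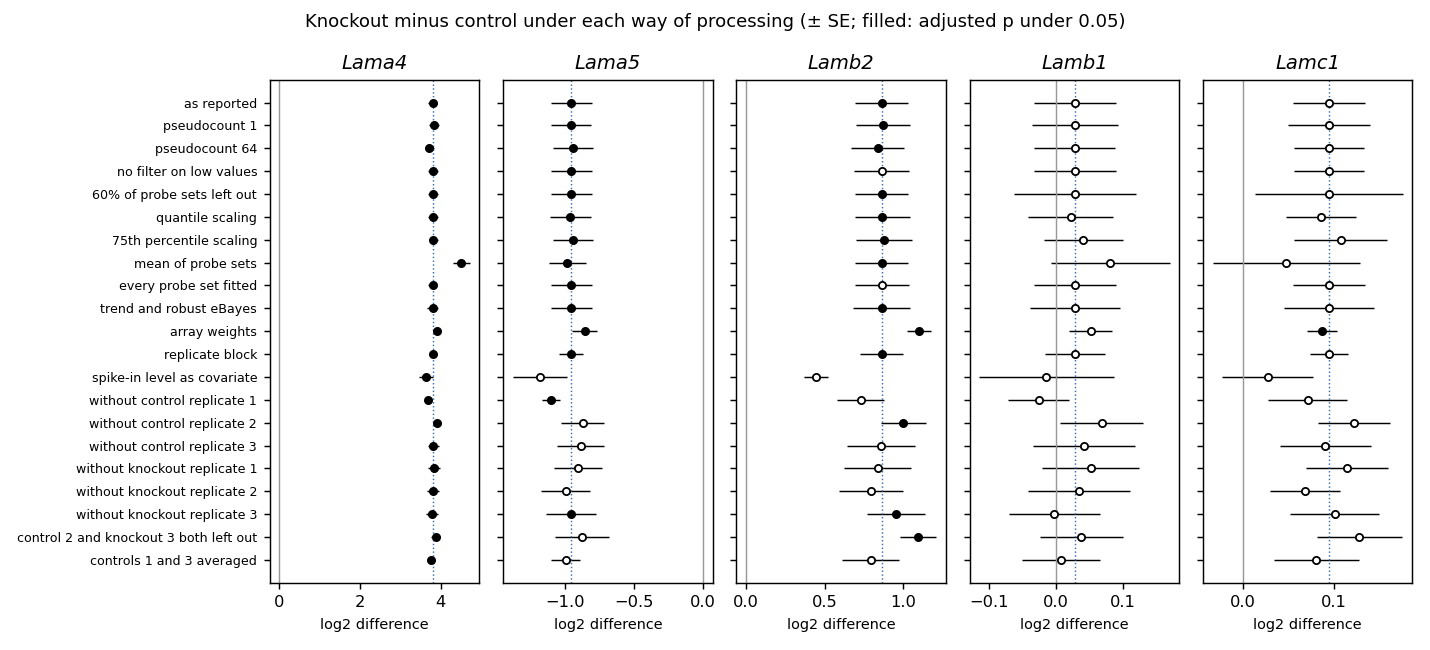
Log2 difference in intensity, knockout minus control, with its SE for the 5 tested chains (1 panel each, with its own axis) under the reported fit and 20 alternatives; filled points passed an adjusted p of 0.05 and the dotted line is the reported value. Lama4 is filled throughout, Lama5 and Lamb2 keep their sign but lose the call in 7 and 8 alternatives, and Lamb1 crosses 0.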

How the data were processed

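Each of the 6 samples was read on 1 expression array after amplification and biotin labelling of total RNA, per the labels' protocols. The authors deposited linear intensity values, 1 for every probe set on each array. MAS5 and GCRMA are named in the submitters' processing notes, with no version and no order. Quantiles were nearly equal between arrays, so no further scaling was applied. The platform annotation gave 34958 of 45101 probe sets 1 gene.

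Values were taken as log2(intensity + 16). Of the probe sets that are not array controls, the 40% with the lowest mean were left out, leaving 27022 and, with the brightest probe set per gene, 12279 genes. Groups were compared by limma 3.58.1 under R 4.3.3 (two-sided moderated test, Benjamini-Hochberg over all genes, threshold 0.05), and within-array differences of chains with exact permutation tests (scipy 1.17.1). The script was tested on simulated data. A signal under 16 was taken as the floor; differences there are understated. Precision is limited by the number of arrays, 3 a group.

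The members and gene lists were chosen with earlier results of these data known. The chains, Lamc3 and Epas1 were named by rule, as were up to 4 genes of each list with the smallest p, the brightest markers and the 3 genes most like each called chain. Further markers, the collagen IV chains and further netrins were named after their values were seen. Alternatives changed the scaling, pseudocount, filter, probe set choice, test settings, covariates and arrays included.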

Additional observations from a re-analysis of the deposited data

How the results depend on the processing

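Lama4 kept its direction and its call in all 20 alternatives run (log2 difference 3.63 to 4.51, adjusted p 1.63e-05 to 0.0156). Lama5 and Lamb2 kept their directions in all 20, with adjusted p from 0.000856 to 0.104 and from 0.000288 to 0.148. Without a filter, where 4.91% of all genes passed, Lamb2 had an adjusted p of 0.077. Lamb1, not called in any, changed sign with the spike-in covariate (-0.014), without control 1 (-0.026) and without knockout 3 (-0.0025), in a range up to 0.068 as each array was left out. Lamc1 passed only with array weights (0.09, adjusted p = 0.00648), a fit that did not converge and called 69.5% of all genes. Called chains numbered 3, against 1 with the spike-in covariate and 1 with controls 1 and 3 averaged. Over all genes the share that passed was 13.7% in the reported fit. It was 3.6% with the spike-in covariate and 1.57% with controls 1 and 3 averaged. The 4 within-array differences between chains kept their sign in all 11 alternatives each.

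With array weights 8 receptors, 6 partners, 2 netrins and 3 proteases passed. Receptor counts were 1 without a filter, 1 with 60% of probe sets left out, 1 with every probe set fitted, 4 with trend and robust eBayes, and 0 with the spike-in covariate, where proteases numbered 2. Over all genes the shares that passed in these fits were, in the same order, 4.91%, 19.9%, 10.1%, 11.6% and 3.6%. Partners numbered 1 with 60% of probe sets left out, and proteases 2 with quantile scaling and 2 with the mean of probe sets. With quantile scaling 12.7% of all genes passed, and with the mean of probe sets 12.4%. With control 2 and knockout 3 left out, 5 receptors, 1 netrin and 2 proteases passed, against 37.7% of all genes. With controls 1 and 3 averaged, 0 receptors, 1 partner and 0 proteases did, against 1.57% of all genes. With each array left out in turn, chains numbered 1 to 3, receptors 0 to 5, partners 1 to 2 and proteases 0 to 1. The share of all genes ranged from 1.68% to 24.5% in those fits.

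The labels give both groups the numbers 1 to 3. Deviations of same-numbered arrays correlated at -0.46, 0.84 and 0.80 for numbers 1, 2 and 3, and control 1 and knockout 1 correlated better with another number than with their own, so the number was not taken as a pairing. With the replicate block 3 chains (the same genes), 3 receptors, 2 partners, 0 netrins and 1 protease passed, and called genes rose from 1684 to 2993. No depth exists for arrays; chains at the floor could not be compared.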
